A study of Sus scrofa with 20 samples.

Results

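The addition of the intermediate ejaculate fraction to the inseminate was examined in pig uterus by setting 2 groups of sows against each other. The sows of the group called FR1 received the sperm-rich fraction alone, and those of FR2 received the rich and the intermediate fractions together. All named genes of the deposited table were compared over 5 FR2 and 5 FR1 libraries, 10 of the 20 libraries in the series, and no other library entered the fit. The remaining libraries are 5 of sows given the rich, intermediate and poor fractions (FR3) and 5 of controls that were not inseminated. Their levels are given only as a description. All sows were Large White × Landrace crossbreds labelled wild type (WT). They were sampled on day 6 after the onset of estrus. Semen came from 3 Pietrain boars. The pre-sperm phase was discarded and the gel was removed in every inseminate. The dose was placed beyond the cervix at the onset of estrus and then every 24 h. The uterine horns were separated to check for embryos. The labels do not say which sow received which boar, nor which sows held embryos, so neither could be entered in the fit. Each library is a separate sow, but the doses of a group came from the ejaculates of the same few boars.

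A boar ejaculates in phases. The rich fraction carries most of the sperm with fluid from the epididymis and prostate, and the later fractions carry fewer sperm and more fluid of the seminal vesicles. Seminal plasma holds spermadhesins, cytokines such as TGF-beta, prostaglandins and proteases, and it acts on the lining of the female tract. In sows it is known to bring neutrophils into the uterus soon after mating and to alter cytokine, adhesion and steroid-response genes there. At the stage sampled, progesterone from the young corpora lutea acts on the endometrium, and early embryos, where present, have entered the horns. FR2 against FR1 therefore sets the added intermediate fraction on a base of rich fraction that both groups received, and is no comparison with and without semen.

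The libraries held 36.4 to 53.9 M counts of named genes in FR1 and 39.3 to 47.3 M in FR2. Levels are counts relative to library size (CPM), scaled by the trimmed mean of M values (TMM). They are not divided by gene length, so they compare libraries and not genes. Before any difference is read, 3 libraries have to be named, since FR1_1, FR1_4 and FR2_3 stood apart from the others. The 3 pairs among them had Spearman correlations of 0.977 to 0.981 across genes, and the 21 pairs joining one of them to another library had 0.917 to 0.963. The 21 pairs without them had 0.965 to 0.987. The first principal component, with 39.3% of the variance, placed them at 64.6, 88.4 and 71.7 and the other 7 libraries between -62.4 and -8.37. The mean correlation was 0.954 within FR1, 0.969 within FR2 and 0.964 between the groups, so libraries of different groups were no less alike than libraries of FR1. These correlations are across genes of the same tissue and are given as a description.

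**Figure D1:**
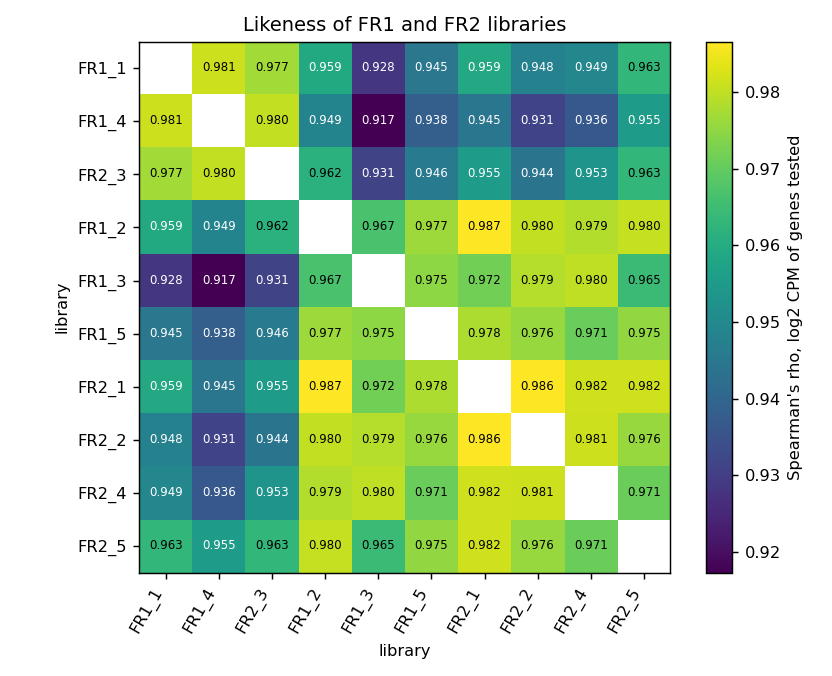
Spearman's rho of log2 CPM across the tested genes for each pair of the 10 libraries (rows and columns are libraries, colour and printed number are rho), with the 3 libraries that stood apart placed first. The pairs among FR1_1, FR1_4 and FR2_3 are at 0.977 to 0.981, and their pairs with the other 7 libraries are at 0.917 to 0.963.

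Several gene lists separated the 3 libraries from the rest. The summed level of a gene list is given as the mean log2 CPM of its tested members. The interferon response list was at 2.9, 2.54 and 3.299 in FR1_1, FR1_4 and FR2_3, and at 3.77 to 4.91 in the other libraries. The T and NK cell list was at 0.43, 0.59 and 1.102 in them, and at 1.24 to 2.98 in the rest. The epithelial list was at 6.17, 6.23 and 6.57 in the 3 and at 6.59 to 7.14 in the others. The mast cell list was at 4.403, 3.95 and 4.48 against 5.22 to 5.84. The smooth muscle list did not set FR2_3 apart, at 9.31. It was at 10.27 and 10.1 in FR1_1 and FR1_4 and at 7.75 in FR1_3, while FR2 ran from 7.88 in FR2_4 to 9.57 in FR2_5. Markers of the labelled tissue were present. EPCAM of the epithelium was at 159 and 174 CPM in FR1 and FR2, and lumican (LUM) of the stroma was at 341 ± 81.3 and 416 ± 46.8 CPM (mean ± SD, n = 5 in each group, as for all such values). Gamma-2 smooth muscle actin (ACTG2) ran from 524 to 5213 CPM in FR1 and from 612 to 2037 CPM in FR2. In whole tissue, fewer cells of a type and less RNA per cell cannot be told apart.

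**Figure D2:**
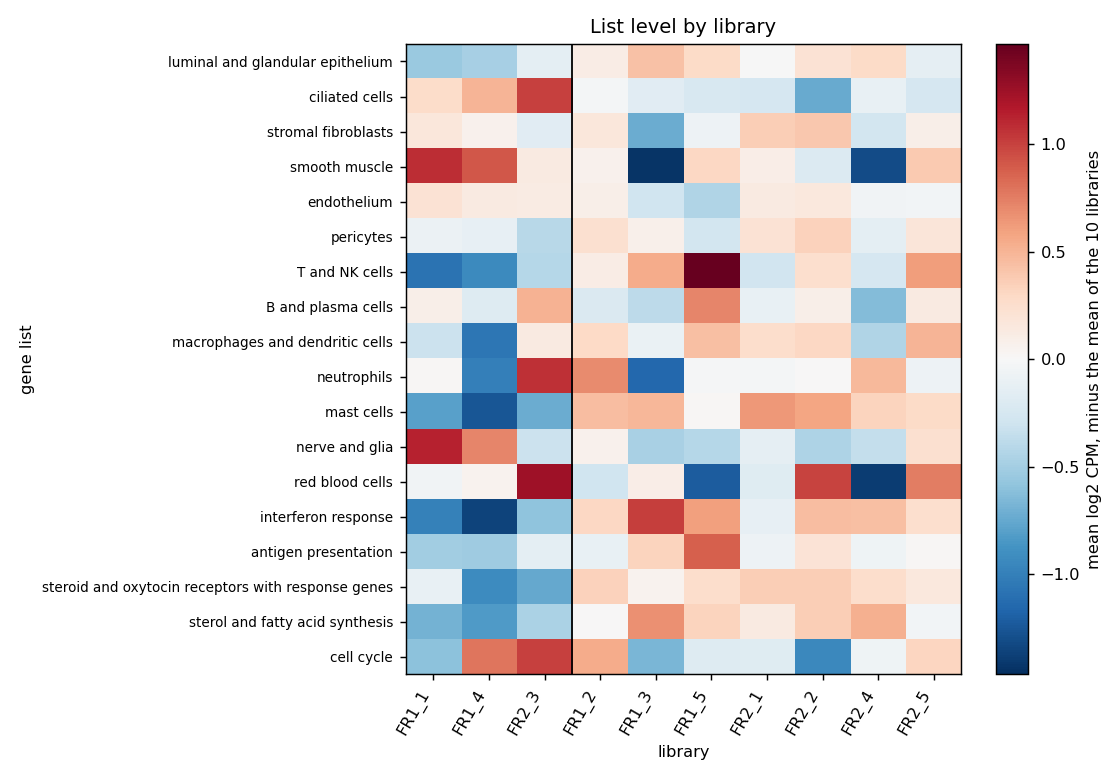
Level of 18 gene lists (rows) in each of the 10 libraries (columns), as mean log2 CPM minus the mean of the 10 libraries (colour, red above and blue below), with FR1_1, FR1_4 and FR2_3 left of the vertical line. The interferon response row is blue in those 3 libraries, and the smooth muscle row is darkest blue in FR1_3 and FR2_4, at 7.75 and 7.88 before the mean is taken off.

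No gene was called different between FR2 and FR1. Of 16796 genes tested with edgeR's quasi-likelihood test and Benjamini-Hochberg adjustment over all of them, 0 (0%) passed an adjusted p of 0.05, and the lowest adjusted p was 0.997. An unadjusted p below 0.05 was reached by 567 genes (3.38%), 282 higher in FR2 (1.68%) and 285 lower (1.7%). Voom with limma also called 0 genes. DESeq2 called 3, which are DKK1 (log2 fold change 1.45 ± 0.27 SE, adjusted p = 0.00134), AIFM2 (-0.64 ± 0.12, adjusted p = 0.00221) and the uncharacterised locus LOC110259691 (2.25 ± 0.46, adjusted p = 0.00473). These 3 genes also had unadjusted p values in edgeR of 0.000155, 0.000216 and 0.000599. The median log2 fold change over all genes was -0.0045, and 8280 genes (49.3%) were positive.

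The width of the interval around a fitted difference depended on the level. These intervals are per gene and not adjusted for the number of genes tested, so they do not give the smallest difference that could be called. DKK1, with a 95% interval of 0.88 to 2.02, was not called by edgeR. The median standard error of the log2 fold change was 0.22, and the median 95% interval reached 0.48 to either side. For 11594 genes (69%) the whole interval lay within 1 log2 unit of 0, so that a 2-fold difference lay outside the interval of each. That held for 91% of the 8615 genes at 10 to 100 CPM, for 87.2% of the 1872 genes at 100 CPM or more, for 50% of the 4160 genes at 1 to 10 CPM, and for 2.05% of the 2149 genes below 1 CPM. A 1.5-fold difference lay outside the interval of 43.8% of genes. A difference of 1 log2 unit or more was fitted for 387 genes (2.3%), and 251 of these were below 1 CPM.

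**Figure D3:**
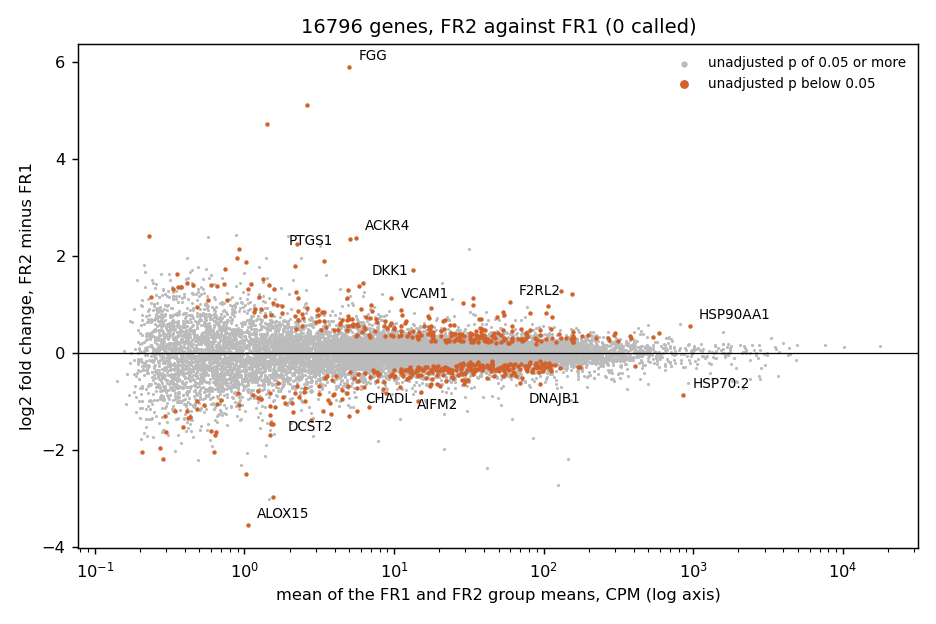
Log2 fold change of FR2 minus FR1 (vertical axis) against the mean of the 2 group means in CPM (log axis) for each of the 16796 genes tested. Genes with an unadjusted p below 0.05 are orange, none passed the adjusted threshold, and the spread is widest at low levels.

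The genes named next are those not called that had the smallest unadjusted p among genes with a mean of at least 1 CPM and a fitted difference of at least 1 log2 unit, 12 in each direction. They are given as values, and a number with ± in brackets is the log2 fold change of FR2 minus FR1 with its SE. Among those higher in FR2, dickkopf 1 (DKK1), a secreted inhibitor that blocks Wnt signalling at its LRP co-receptors, had the smallest p. It was at 3.62, 3.45, 4.07, 2.94 and 2.29 CPM in FR1_1 to FR1_5 and at 8.03, 13.1, 11.3, 6.51 and 6.29 CPM in FR2_1 to FR2_5. Every FR2 sow was above every FR1 sow, and the log2 fold change was 1.45 ± 0.26 (SE; 95% interval 0.88 to 2.02). In FR3 it ran from 3.18 to 17.8 CPM and in the controls from 0 to 38.2 CPM, so the control sows spanned more than the range of both groups.

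VCAM1, an adhesion molecule of activated endothelium and stroma that binds an integrin of lymphocytes, monocytes and eosinophils, was at 14.8, 23.8, 25.1, 13.6 and 16.7 CPM in FR1 and at 40.1, 64.1, 26.5, 34.8 and 27.9 CPM in FR2. The groups did not overlap, though FR2_3 and FR2_5 lay just above FR1_3, and the log2 fold change was 1.02 ± 0.26. Without FR2_2 it was 0.77. F2RL2, the protease-activated receptor PAR3 that assists thrombin signalling, was at 25.5, 54.7, 44.96, 25.5 and 40.6 CPM in FR1 and at 95.3, 104, 37.5, 82.2 and 80.3 CPM in FR2. FR2_3 was within the FR1 range and the other 4 FR2 sows were above it, and the log2 fold change was 1.04 ± 0.28. FR2_3 is one of the 3 libraries that stood apart. In FR3 VCAM1 ran from 13.35 to 56.1 CPM and F2RL2 from 22.2 to 72.6 CPM, and both overlapped FR1 and FR2.

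Several of the larger fitted differences came from some sows of the group. PTGS1, the constitutive cyclooxygenase that starts prostaglandin synthesis, was at 0.527, 2.46, 2.33, 1.41 and 1.502 CPM in FR1 and at 7.79, 13.5, 1.32, 17.7 and 2.53 CPM in FR2. FR2_1, FR2_2 and FR2_4 were high, FR2_3 lay inside the FR1 range and FR2_5 just above it, and the log2 fold change was 2.34 ± 0.67. ACKR4, a scavenging receptor for the lymphoid chemokines CCL19 and CCL21, had the same 3 sows on top, with 21.7, 6.83, 3.33, 13.3 and 1.79 CPM in FR2 against 1.13, 2.86, 2.81, 0.922 and 1.12 CPM in FR1 (log2 fold change 2.38 ± 0.65). The gamma chain of fibrinogen (FGG), a clotting protein best known from liver, was at 34.8, 11.2, 0, 2.28 and 1.14 CPM in FR2 and at 0, 0.151, 0.457, 0 and 0.191 CPM in FR1. Its fitted log2 fold change of 5.90 ± 1.60 was 4.47 without FR2_1, and it was listed at 0 in FR2_3. In FR3 FGG was at 46.5, 24.5, 10.8, 0 and 16.9 CPM, and in the controls at 0, 25.5, 2.88, 0.314 and 9.58 CPM. PTGS1 ran from 1.30 to 4.60 CPM in FR3 and from 1.69 to 26.6 CPM in the controls. ACKR4 ran from 1.65 to 31.5 CPM in FR3.

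The other 6 genes higher in FR2 were low in level. They were BHMT, which remethylates homocysteine with betaine (1.88 ± 0.45 on the log2 scale), serine dehydratase (SDS, 1.89 ± 0.52), the phosphatase inhibitor PPP1R1B (1.26 ± 0.37), the tendon homeobox factor MKX (1.53 ± 0.44) and DUSP5, a phosphatase of nuclear ERK (1.38 ± 0.42), and the uncharacterised LOC110259691 (2.25 ± 0.47). LOC110259691 did not overlap between the groups, at 0.219 to 1.45 CPM in FR1 and 2.61 to 4.23 CPM in FR2. DUSP5 was highest in FR2_3 and FR2_5, at 14.2 and 13.3 CPM, and the other FR2 sows were at 3.596 to 6.31 CPM against 2.15 to 4.79 CPM in FR1.

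**Figure D4:**
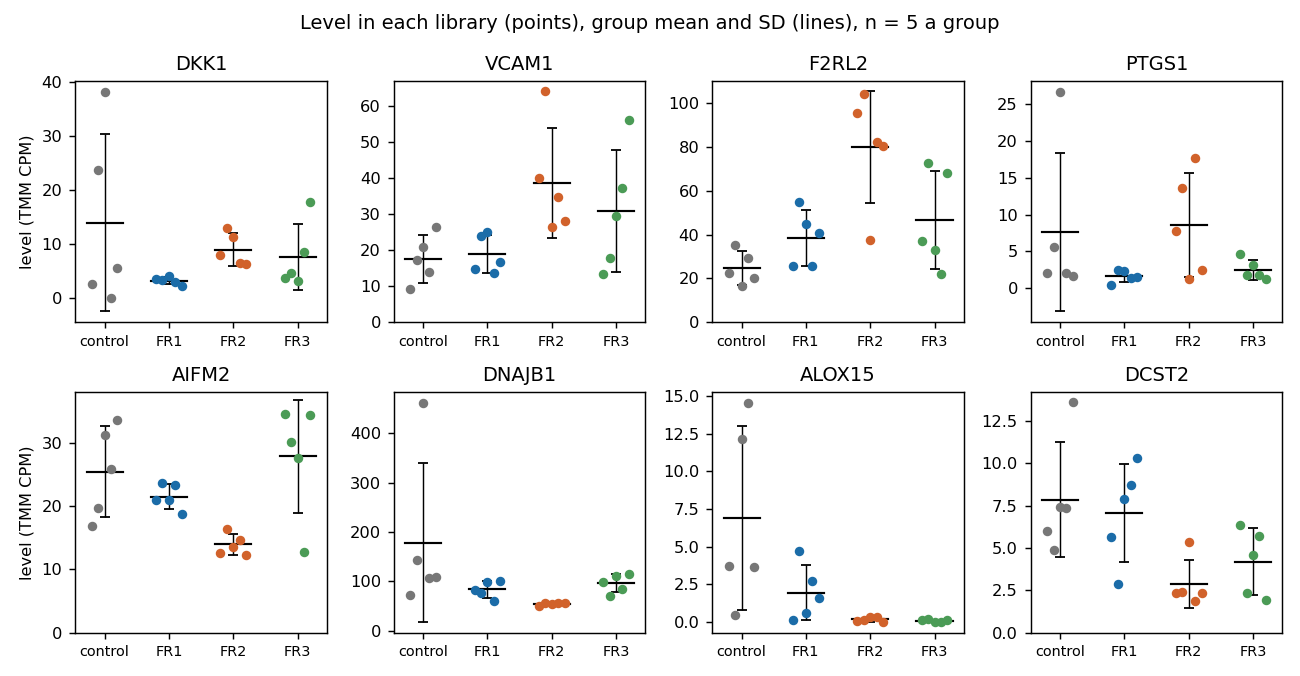
Level in TMM CPM (vertical axes, 1 panel per gene) in each library of the controls, FR1, FR2 and FR3 (points are sows, the horizontal line is the group mean and the error bar the SD, n = 5 a group). The FR1 and FR2 points do not overlap for DKK1, VCAM1, AIFM2 and DNAJB1. For PTGS1 3 of the 5 FR2 sows stand far above the FR1 sows, with FR2_5 just above the FR1 range and FR2_3 inside it.

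Among the 12 genes lower in FR2, ALOX15 had the lowest log2 fold change. It encodes a lipoxygenase that oxygenates polyunsaturated fatty acids and is found in eosinophils, macrophages and epithelia. It was at 0.1199, 4.71, 0.566, 2.72 and 1.61 CPM in FR1 and at 0.0651, 0.0959, 0.325, 0.3401 and 0 CPM in FR2. FR1_2, FR1_3, FR1_4 and FR1_5 were above every FR2 sow, FR1_1 was inside the FR2 range, and the log2 fold change was -3.56 ± 1.04. DCST2, a membrane protein needed for sperm and egg fusion, was at 5.63, 2.91, 7.904, 8.74 and 10.3 CPM in FR1 and at 2.34, 2.398, 5.36, 1.895 and 2.35 CPM in FR2. FR2_3 alone among the FR2 sows was within the FR1 range, and the log2 fold change was -1.31 ± 0.39. DCST2 was also present in the controls, at 4.904 to 13.6 CPM, in sows that had received no semen.

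Further genes of the 12 were of low level. CHADL, a collagen-binding leucine-rich protein of cartilage matrix, was at 4.99 to 12.6 CPM in FR1 and 1.93 to 5.23 CPM in FR2 (-1.19 ± 0.34). SLFNL1 was at 1.702 to 4.32 and 0.911 to 1.79 CPM (-1.23 ± 0.32), the mitochondrial nuclease EXOG at 1.702 to 3.94 and 0.956 to 1.71 CPM (-1.04 ± 0.31), and VWA7 at 0.697 to 3.16 and 0.462 to 1.28 CPM (-1.28 ± 0.45). ZNF683, a transcription factor of tissue-resident lymphocytes known as Hobit, was at 0.791, 0.7399, 2.96, 1.21 and 5.33 CPM in FR1 and at 0.738, 1.37, 0.861, 0.389 and 0.637 CPM in FR2 (-1.47 ± 0.60), with FR1_3 and FR1_5 high. A further 4 are uncharacterised loci with log2 fold changes of -1.45 to -1.12.

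All 5 libraries of one group lay above all 5 of the other for 123 genes (0.732%), 75 with FR2 above (0.447%) and 48 with FR2 below (0.286%). With 5 libraries a group, some genes separate in this way without any real difference, and the share so expected was not counted. The genes of this paragraph were named after their values were seen, for small p and tight groups. AIFM2, also called ferroptosis suppressor protein 1, regenerates the reduced coenzyme Q that protects membranes from lipid peroxidation. It was at 20.9, 23.6, 20.9, 23.3 and 18.7 CPM in FR1 and at 12.7, 16.4, 13.6, 14.7 and 12.3 CPM in FR2. The lowest FR1 sow was above the highest FR2 sow, and the log2 fold change was -0.64 ± 0.12 (95% interval -0.90 to -0.38). The row with the symbol of the retinoic acid receptor gamma (RARG), whose identifier RefSeq lists as a long non-coding RNA, was at 46.4, 44.9, 42.3, 55.5 and 57.1 CPM in FR1 and at 37.5, 35.04, 31.9, 33.6 and 35.2 CPM in FR2 (-0.52 ± 0.11). FR2 sows were also below for MAFG, a small Maf partner of the oxidative stress factor NRF2, at 18.6 to 21.6 CPM against 24.5 to 35.5 CPM (-0.52 ± 0.11). FR2 sows were above for SPRY4, a feedback inhibitor of ERK signalling, at 7.04 to 10.4 CPM against 4.27 to 6.71 CPM (0.72 ± 0.17), and for the orphan nuclear receptor RORB, at 36.3 to 65.8 CPM against 24.1 to 34.7 CPM (0.71 ± 0.18). For AIFM2, RARG, MAFG and RORB the FR3 range overlapped both groups. AIFM2 was at 34.5, 30.1, 27.6, 12.7 and 34.4 CPM in FR3, so every FR3 sow but FR3_4 was above every FR1 sow. For RARG and MAFG every FR3 sow but FR3_4 was above every FR2 sow. For SPRY4 FR3 reached only 5.9 CPM, below every FR2 sow.

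The pathway lists hold genes fitting this tissue and treatment. Lists are described by the count of members with a positive log2 fold change and by the median, beside 49.3% positive and a median of -0.0045 over all genes. No member of any list passed the adjusted threshold. In the immediate early and heat shock list, 15 of the 25 tested members were positive and the median was 0.20. Among its early transcription factors EGR1 was at 0.78 ± 0.44 and ATF3 at 1.44 ± 0.71, both chosen after their values were seen. ATF3 had the highest value of the list, and 10 members were negative. The smallest p values belonged to chaperones. HSP70.2, the stress-inducible HSP70, was at 1786, 727, 922, 1272 and 826 CPM in FR1 and at 567, 693, 656, 588 and 564 CPM in FR2 (-0.87 ± 0.23). DNAJB1, its HSP40 co-chaperone, was at 81.4, 76.04, 98.2, 60.7 and 101 and 50.3, 56.2, 54.8, 55.6 and 56.4 CPM (-0.62 ± 0.13). For both, all FR1 sows were above all FR2 sows, as they were for the co-chaperone BAG3 (-0.19 ± 0.09). HSP90AA1, the inducible HSP90, did the opposite, at 804, 832, 642, 727 and 827 CPM in FR1 and 1001, 1542, 915, 1032 and 1185 CPM in FR2 (0.55 ± 0.15). In FR3, DNAJB1 ran from 70.4 to 113.8 CPM and BAG3 from 42.03 to 66.99 CPM, above every FR2 sow. HSP70.2, at 522 to 1157 CPM, and HSP90AA1, at 683 to 1202 CPM, overlapped both groups in FR3. Reads of HSP70.2 may be shared with near-identical HSP70 genes, so its level is uncertain. Of the 25 tested, 4 did not overlap between the groups, against 0.732% of all genes (the 3 with FR2 below are HSP70.2, DNAJB1 and BAG3).

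The chaperones of the endoplasmic reticulum, which fold secreted proteins, had 14 of the 24 positive and a median of 0.055. HSP90B1 was at 319 to 372 CPM in FR1 and 398 to 473 CPM in FR2 without overlap (0.31 ± 0.094). The lectin chaperone calnexin (CANX) was at 331 ± 69.7 and 426 ± 57.5 CPM (0.35 ± 0.16) and calreticulin (CALR) at 426 ± 17.9 and 477 ± 23.3 CPM (0.15 ± 0.087). These differences are within 1.5-fold, and the 95% interval of HSP90B1 was 0.10 to 0.51.

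Wnt genes steer growth of uterine glands and stroma. Beside the inhibitor DKK1, the ligands WNT2, at 39.5, 41.3, 17.9, 20.7 and 18.8 CPM in FR1 and 45.1, 46.9, 33.7, 58.9 and 44.5 CPM in FR2 (0.71 ± 0.26), and WNT6 (0.49 ± 0.21) were the members with an unadjusted p below 0.05. By count and median the list was even, with 15 of the 30 positive and a median of -0.0016. Its summed level was 0.24 higher in FR2. Among other members the values were 0.013 ± 0.14 for the co-receptor LRP6, -0.13 ± 0.19 for the feedback target AXIN2 and 0.13 ± 0.10 for beta-catenin (CTNNB1). In the TGF-beta, activin and BMP list, 19 of the 28 were positive with a median of 0.11. The ligands TGFB1 and TGFB2, which seminal plasma itself carries as proteins, were at 0.24 ± 0.12 and -0.01 ± 0.36, and the activin trap follistatin (FST) was at 0.44 ± 0.20.

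Genes that cleave or bind extracellular matrix held 5 members with an unadjusted p below 0.05, all higher in FR2, of 31 tested, against 1.68% of all genes. In all, 18 were positive and the median was 0.048. ADAMTS1, a protease of the proteoglycan versican that progesterone induces in the ovary, was at 50.02, 42.95, 25.7, 34.4 and 28.4 CPM in FR1 and at 53.3, 62.4, 76.5, 51.4 and 60.2 CPM in FR2 (0.73 ± 0.20). ADAMTS4, an aggrecanase, was at 3.98, 4.02, 3.702, 4.104 and 4.12 and 4.25, 6.74, 5.44, 6.44 and 6.59 CPM (0.55 ± 0.17). Neither overlapped between the groups, but FR1_1 lay close to FR2 for ADAMTS1 and FR2_1 close to FR1 for ADAMTS4. Thrombospondin 1 (THBS1), which inhibits vessel growth and activates latent TGF-beta, was at 12.3 to 30 CPM in FR1 and 29.8 to 76.5 CPM in FR2 (0.99 ± 0.30). The matrix protease matrilysin, MMP7 (a mean of 0.148 CPM in FR1 and 5.11 CPM in FR2, 5.11 ± 1.66), was another of the 5. In FR3, ADAMTS1 ran from 20.6 to 66.8 CPM, ADAMTS4 from 0.964 to 4.33 CPM and THBS1 from 9.84 to 37.8 CPM. Their FR3 medians were 31.3, 2.57 and 16.8 CPM, below the FR1 medians of 34.4, 4.02 and 23.5 CPM. ADAMTS1 ran from 15 to 432 CPM in the controls.

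Inflammatory genes were at low levels. Of 30 listed, 21 were tested, and IL1A, IL1B, TNF, IL10, CCL4, CCL8, CCL20, CSF2 and IL1RN were below the level filter. Of the 21, 14 were positive and the median was 0.15. Besides VCAM1, E-selectin (SELE), the adhesion molecule of inflamed endothelium, had an unadjusted p below 0.05, at 0, 0.555, 0.261, 0.395 and 0.492 CPM in FR1 and 1.41, 1.05, 1.05, 0.486 and 1.75 CPM in FR2 (1.74 ± 0.73). In FR3 SELE was at 0.273 to 0.576 CPM. The neutrophil chemokine CXCL8 was at 0 to 0.355 CPM in FR1, at 0.0486 to 0.383 CPM in 4 FR2 sows, and at 2.39 CPM in FR2_5 (1.68 ± 1.05). IL6 was at 0.0658 to 3.33 CPM in FR1 and 0.4797 to 3.92 CPM in FR2 (0.30 ± 0.91). The 95% intervals were -0.62 to 3.98 for CXCL8 and -1.71 to 2.31 for IL6, so neither direction was settled.

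In the prostaglandin list 10 of the 20 tested genes were positive, and the median was -0.0027. PTGS1 and PTGES3, a cytosolic prostaglandin E synthase and HSP90 co-chaperone, had unadjusted p below 0.05. PTGES3 was at 132 to 149.8 CPM in FR1 and 152 to 189 CPM in FR2 (0.22 ± 0.10), without overlap. The inducible cyclooxygenase PTGS2 varied more within the groups than between them, at 0, 3.43, 13.5, 0 and 1.61 CPM in FR1 and 27.5, 7.65, 0, 4.08 and 5.496 CPM in FR2 (1.26 ± 1.48). It was listed at 0 in FR1_1, FR1_4 and FR2_3, the 3 libraries that stood apart. The inducible synthase PTGES was at 0.21 ± 0.43, and PTGFR and PTGER3, receptors of prostaglandins F2alpha and E2, were at -0.042 ± 0.35 and -0.035 ± 0.52.

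Estrogen and progesterone receptors had fitted differences near 0. Estrogen receptor alpha (ESR1) was at 305 ± 43.8 CPM in FR1 and 312 ± 77.7 CPM in FR2 (0.021 ± 0.18, 95% interval -0.38 to 0.42). The progesterone receptor (PGR) was at 30.1 ± 8.71 and 33.5 ± 9.89 CPM (0.14 ± 0.24, 95% interval -0.39 to 0.68), with FR2_3 high at 51.04 CPM. The oxytocin receptor (OXTR), which readies the uterus for contraction and luteolysis, ran from 1.44 to 16.2 CPM in FR1 and from 1.14 to 17.7 CPM in FR2 (0.12 ± 0.67). Of the genes of receptivity and histotroph, the secretion that feeds the conceptus, 20 of the 29 tested were positive with a median of 0.11. FGF7, an epithelial growth factor of the pig uterus, had an unadjusted p below 0.05, at 0.656 to 1.497 CPM in FR1 and 1.48 to 2.01 CPM in FR2 (0.76 ± 0.31). In FR3 FGF7 ran from 0.153 to 1.97 CPM, and in the controls from 0.272 to 446 CPM. Osteopontin (SPP1) was at 0.12 ± 0.18, IGF1 at 0.038 ± 0.13, LIF at 0.21 ± 0.67, HBEGF at 0.022 ± 0.24, VEGFA at 0.058 ± 0.28 and the iron carrier uteroferrin (ACP5) at 0.11 ± 0.54. The intervals of LIF (-1.26 to 1.68) and ACP5 (-1.07 to 1.29) exceed 2-fold, and those of IGF1 (-0.25 to 0.32) and SPP1 (-0.28 to 0.53) do not.

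Interferon response genes, of which 12 of the 30 were positive with a median of -0.031, were low in all 3 libraries that stood apart. The median over the other 7 libraries was -0.35. Antigen presentation genes had 10 of the 27 positive and a median of -0.10, and -0.45 without the 3 libraries. Their part in the difference was not tested. In these lists single sows were high: the lymphocyte chemokine CXCL9 reached 3.31 CPM in FR1_5 and 0.0658 to 0.827 CPM in the other FR1 sows, and the class I gene SLA-8 63.5 CPM in FR1_5 against 26.2 to 34.4 CPM. SLA class I genes are alike in sequence, so reads may be split between them. Among genes of immune tolerance the ectonucleotidase NT5E (CD73), which makes adenosine, had the smallest p (0.87 ± 0.31), at 1.01 to 2.18 CPM in FR1 and 1.78 to 3.92 CPM in FR2. FOXP3, the defining factor of regulatory T cells, was at 1.61 ± 0.3796 and 1.32 ± 0.609 CPM (-0.30 ± 0.37). The tryptophan-degrading enzyme IDO1 was under the filter, with 17 counts over the FR1 libraries and 78 over the FR2 libraries.

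The remaining pathway lists held few members with an unadjusted p below 0.05. Angiogenesis genes had 18 of the 24 positive and a median of 0.18, with the vessel-destabilising ligand ANGPT2 at 2.46 to 8.41 CPM in FR1 and 6.59 to 13.8 CPM in FR2 (0.63 ± 0.32) and apelin (APLN) at 0.82 ± 0.44. Nutrient transporters had 16 of the 25 positive and a median of 0.14. The neutral amino acid carrier SLC38A1 had the smallest p of them, at 63.6, 68.8, 42.8, 38.1 and 35.6 CPM in FR1 and 64.2, 74.01, 78.3, 90.2 and 60.9 CPM in FR2 (0.55 ± 0.20). Adhesion and junction genes had a median of 0.06 (-0.066 without the 3 libraries) and complement genes one of -0.012. In the latter, CD46, which shields cells from complement, was at 63.04 to 74.8 CPM in FR1 and 74.99 to 78.6 CPM in FR2, without overlap but with a difference of only 0.12 ± 0.082.

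Sterol and fatty acid synthesis had 12 of the 22 positive and a median of 0.086, and -0.14 without the 3 libraries. Oxidative phosphorylation genes had 2 of the 12 positive and a median of -0.10, with complex I subunit NDUFV1 at 89.3 ± 12.5 and 77.2 ± 3.398 CPM (-0.23 ± 0.11). Ribosomal protein genes had a median of -0.0039 and a range of -0.14 to 0.19. Mucins and mucosal defence genes had a median of -0.0031. Lysozyme (LYZ) among them was at 7.397 to 20.1 CPM in FR1 and 4.75 to 13.5 CPM in FR2 (-0.61 ± 0.37), and the surface mucin MUC1 was at 2.06 to 3.19 and 2.21 to 5.04 CPM (0.41 ± 0.27). Cell cycle genes had a median of 0.12, and -0.16 without the 3 libraries. Their summed level ran from 3.02 in FR2_2 to 4.97 in FR2_3, and FR1_4 was next highest at 4.75.

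Markers of cell types were examined in the same fit. Smooth muscle had the lowest median, -0.54, and all 11 of its members were negative, none with an unadjusted p below 0.05. Without FR1_1, FR1_4 and FR2_3 its median was 0.014. T and NK cell markers had 1 of the 11 positive and a median of -0.30, which ran from -0.59 to 0.14 when single sows were left out and was -0.75 without the 3 libraries. The T cell receptor component CD3E was at 1.25, 3.48, 6.64, 2.31 and 12.7 CPM in FR1 and 2.63, 5.804, 1.49, 2.87 and 4.301 CPM in FR2 (-0.64 ± 0.58), with FR1_5 highest, and its log2 fold change was -0.014 without FR1_5. Macrophage and dendritic cell markers had 9 of the 10 positive and a median of 0.16, and -0.017 without the 3 libraries. The scavenger receptor CD163 was at 5.18, 9.904, 3.83, 1.07 and 4.72 CPM in FR1 and 10.4, 12.8, 7.904, 7.43 and 9.74 CPM in FR2 (0.95 ± 0.44), and FR1_4 was the lowest. Red blood cell genes had 4 of the 4 positive and a median of 0.99. Beta globin (HBB) was at 59.5, 63.97, 68.7, 51.97 and 20.5 CPM in FR1 and 41.8, 161, 170.1, 9.89 and 132 CPM in FR2, so FR2_2, FR2_3 and FR2_5 were high and FR2_4 was the lowest of all. The part of residual blood in the differences given above was not tested. That of muscle was not tested either, beyond an alternative fit with the smooth muscle score as a covariate, which called 0 genes.

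**Figure D5:**
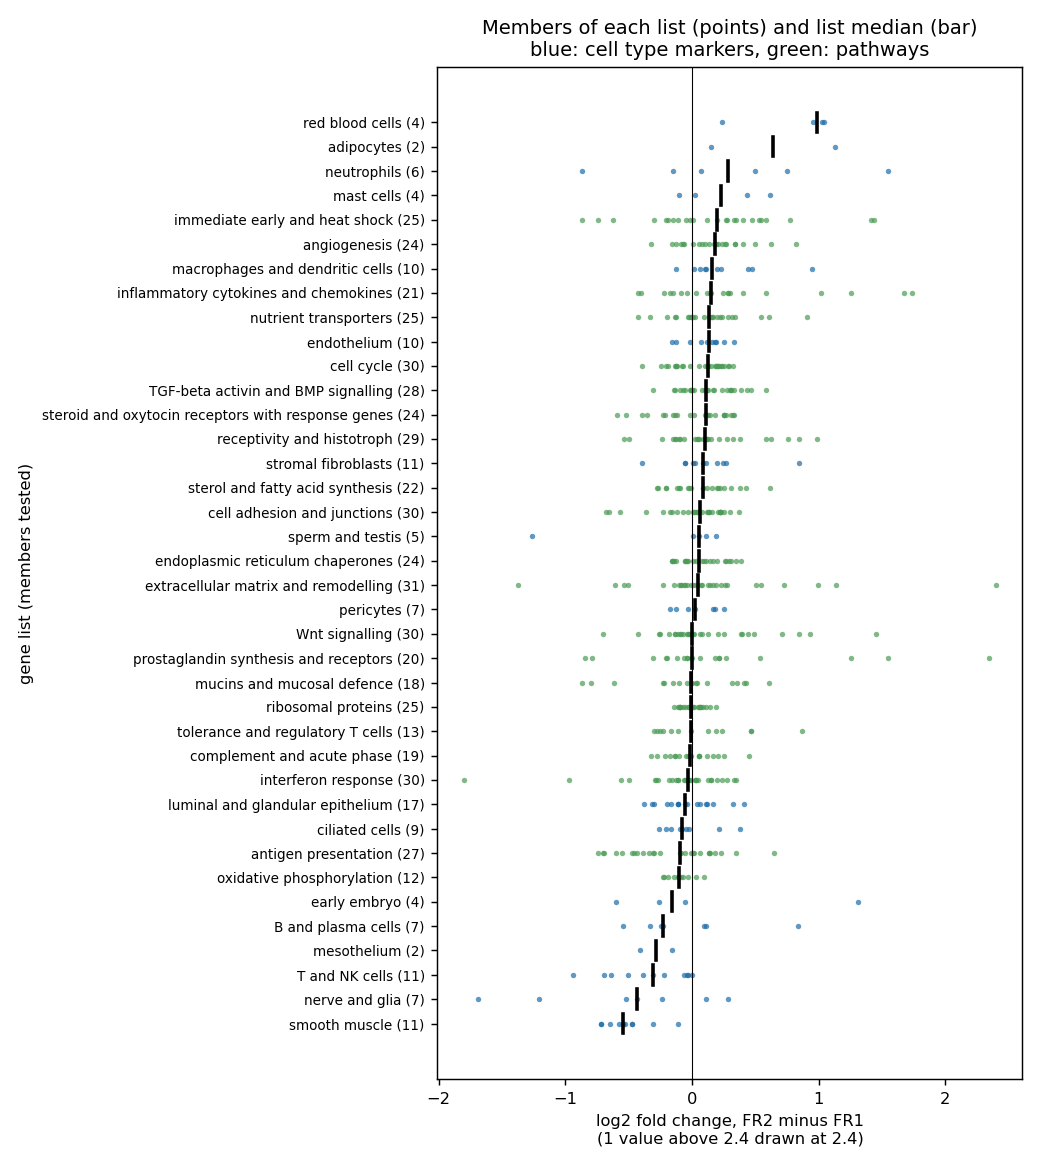
Log2 fold change of FR2 minus FR1 (horizontal axis) for each tested member (points) of the 38 gene lists, with the list median as a bar and the number tested in brackets. Medians run from -0.54 for smooth muscle to 0.99 for red blood cells, and no member passed the adjusted threshold.

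Of the other cell types, the epithelial list had a median of -0.051 with 7 of the 17 positive, although its summed level was 0.087 higher in FR2, so the median and the mean differ in sign. They differed in sign for further lists too. The summed level was higher in FR2 by 0.17 for interferon response, 0.33 for prostaglandin, 0.24 for tolerance and 0.11 for early embryo genes. For sperm and testis markers the summed difference was -0.15. The endothelial list had a median of 0.14, the stromal fibroblast list 0.088, the mast cell list 0.23 and the neutrophil list 0.28 over 6 tested members. Markers of nerve and glia had a median of -0.43, and -0.077 without the 3 libraries. SOX10, the factor of Schwann cells, was at 2.302, 0.538, 0.523, 0.944 and 0.546 CPM in FR1 and 0.499, 0.3598, 0.0957, 0.292 and 0.279 CPM in FR2 (-1.69 ± 0.58), just without overlap and with FR1_1 highest. Without FR1_1 its log2 fold change was -1.08, and without the 3 libraries -0.60. The medians were -0.078 for ciliated cells, 0.022 for pericytes, -0.23 for B and plasma cells, and -0.28 and 0.64 for mesothelium and adipocytes, which had 2 tested members each. Without the 3 libraries the mesothelium median was 0.42. The adipocyte member lipoprotein lipase (LPL) was at 1.39 to 5.03 CPM in FR1 and 3.88 to 8.89 CPM in FR2 (1.13 ± 0.37). Platelet-derived growth factor receptor alpha (PDGFRA) of the stroma had an unadjusted p below 0.05, at 25.5, 63.9, 41.2, 22.1 and 37.9 CPM in FR1 and 73.9, 119, 34.8, 67.8 and 52.2 CPM in FR2 (0.85 ± 0.34), low in the 3 libraries that stood apart. Of the sperm and testis markers, PRM1, PRM2, TNP1, TNP2, ODF1, ACR and SPACA1 were under the filter, and the 5 tested members had a median of 0.059. The markers POU5F1, NANOG, CDX2, SOX2 and DPPA5 of the early embryo were under the filter too, and the 4 tested ones, which uterine cells can also express, had a median of -0.16.

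The comparison was repeated without FR1_1, FR1_4 and FR2_3, which leaves 3 FR1 and 4 FR2 libraries. Of 17141 genes then tested, 0 were called by edgeR, 810 had an unadjusted p below 0.05 and the lowest adjusted p was 0.692. The named genes DKK1, VCAM1, F2RL2 and PTGS1 were at 1.35, 0.92, 0.94 and 2.27 on the log2 scale. AIFM2 was at -0.60, HSP70.2 at -0.47, DNAJB1 at -0.76 and HSP90AA1 at 0.62. All 8 of these genes kept their sign. For DKK1, VCAM1, AIFM2, HSP70.2, DNAJB1 and HSP90AA1 the groups did not overlap, so leaving out libraries could hardly turn it. All 8 were named from these same libraries, so the kept sign is no separate evidence of a difference.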

How the data were processed

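Polyadenylated RNA of uterine tissue from 20 sows was sequenced as paired 150-base reads, per the labels' protocols. The submitters' processing notes name CASAVA, STAR 2.7.9a and Salmon 1.10.1. Neither the build nor the annotation is given in the sources used here. The authors deposited 1 table of estimated counts (expected counts) per gene, which need not be whole and were rounded to whole numbers. The 24 rows without a gene name held 0.0036 to 0.0067% of the counts and were left out, which leaves 30345 rows. Strand use in the counting is not clear from the labels, so overlapping and antisense genes cannot be told apart.

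Columns were assigned to groups by their names; the sow behind a column number is not given. The 5 FR2 and 5 FR1 libraries were fitted with edgeR 4.0.16 (R 4.3.3) by the quasi-likelihood test, after edgeR's default filter on low counts and TMM scaling, with 8 residual degrees of freedom and no covariate, at an adjusted p of 0.05 (Benjamini-Hochberg). CPM levels use TMM factors over all 20 libraries. SE was taken from the log2 fold change and the F statistic. No 2 libraries agreed within sampling noise. The procedure was tested on simulated data. Alternatives were DESeq2 1.42.0 (other size factors), limma-voom 3.58.1 with and without quality weights, relative log scaling, no filter, a stricter filter (1 CPM in 5 libraries), FR3 or all groups in the fit, muscle and epithelium scores, 1 surrogate variable (sva 3.50.0), an adjusted p of 0.1, and leaving out each library or the 3 that stood apart.

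The comparison, the 38 gene lists and the panel were chosen with earlier results of these data known. Named genes are up to 12 per direction by smallest p with at least 1 CPM and an absolute log2 fold change of at least 1, called genes first, then the 3 smallest p of each list, and the panel of genes of steroid, cytokine and secretory function. Other genes, such as EGR1, ATF3, BAG3, MMP7, LRP6, AXIN2, CTNNB1, PTGFR and PTGER3, were chosen after their values were seen. Of 721 list entries, 634 were tested. Of 30345 identifiers, 30328 had the same symbol in NCBI's RefSeq table of Sscrofa11.1, which was used for names alone. Some genes that the rule selects are not reported here.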

Additional observations from a re-analysis of the deposited data

Results flagged for a closer look

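A level was marked when 1 sow of a group of 5 lay so far from the other 4 that its gap to the nearest exceeded 0.71 of the whole range. Of 384 groups of named genes and lists checked, 32 were marked. Chance alone marks about 1 group in 20 only where values are normally distributed, and that was not tested for these levels. Some genes checked, such as SAL1 and TNC, were named after their values were seen. No explanation was weighed. In FR1_1, CASQ2 was at 4.12 CPM (the others 1.18 to 1.95), SOX10 was at 2.302 CPM (the others 0.523 to 0.944) and TNC was at 279 CPM (the others 16.2 to 77.2). Also in FR1_1, SAL1 was at 890.0 CPM (the others 4.02 to 134). In FR1_2, IL6ST was at 70.6 CPM (the others 47.5 to 52.1). In FR1_3, FBLN1 was at 214 CPM (the others 326 to 369), PTGS2 was at 13.5 CPM (the others 0 to 3.43) and PTGES was at 87.01 CPM (the others 25.7 to 37.8). Also in FR1_3, the stromal fibroblasts list was at 7.63 log2 CPM in place of 8.29 to 8.53. In FR1_4, TEKT1 was at 3.73 CPM (the others 2.29 to 2.71) and PTGES3 was at 132 CPM (the others 146 to 149.8). In FR1_5, POU2AF1 was at 2.103 CPM (the others 0.622 to 0.871), MZB1 was at 8.99 CPM (the others 3.07 to 4.61) and CXCL9 was at 3.31 CPM (the others 0.0659 to 0.827). Also in FR1_5, GBP1 was at 37.4 CPM (the others 17.1 to 20.9) and SLA-8 was at 63.5 CPM (the others 26.2 to 34.4). In FR2_1, DNAJB1 was at 50.3 CPM (the others 54.8 to 56.4) and PTGS2 was at 27.5 CPM (the others 0 to 7.65). In FR2_2, FKBP5 was at 205 CPM (the others 162 to 172), HSP90B1 was at 473 CPM (the others 398 to 419) and SAL1 was at 188 CPM (the others 15.3 to 28.3). In FR2_3, DCST2 was at 5.36 CPM (the others 1.895 to 2.398), TEKT1 was at 8.92 CPM (the others 1.42 to 3.16) and DNAI1 was at 8.25 CPM (the others 1.82 to 3.17). Also in FR2_3, ODF2 was at 65.3 CPM (the others 51.4 to 55.3), MCM5 was at 30.9 CPM (the others 10.98 to 16.6) and PGR was at 51.04 CPM (the others 27.2 to 31.1). Also in FR2_3, the mast cells list was at 4.48 log2 CPM in place of 5.48 to 5.84 and the steroid and oxytocin receptors with response genes list was at 4.11 log2 CPM in place of 5.02 to 5.22. In FR2_5, CXCL9 was at 0.478 CPM (the others 0.168 to 0.249), CXCL8 was at 2.39 CPM (the others 0.0486 to 0.383) and HBEGF was at 11.2 CPM (the others 7.62 to 8.29).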

How the results depend on the processing

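Leaving out any 1 library gave 0 called genes in each of the 10 fits (range 0 to 0, in each direction too). DESeq2 gave 3 calls, 2 higher and 1 lower, and the other alternatives gave 0. Genes with an unadjusted p below 0.05 numbered 399 to 1162 when 1 library was left out. With 1 surrogate variable they numbered 999 (lowest adjusted p 0.119), with voom quality weights 987, with an epithelium covariate 918, with a smooth muscle covariate 834, with no filter 826 of 24130, with FR3 added 367 and with all 20 libraries 130. The cause was not tested. Of 154 named genes, 128 kept their direction in every alternative and 26 reversed in at least 1, with 82 of the values reversed. Most were named by a small p in the main fit, and the alternatives reuse its libraries. Their kept direction was therefore partly set by that choice, and the share over all tested genes was not counted. DKK1, AIFM2 and LOC110259691 passed the threshold in DESeq2 only. Without FR1_1, FR1_4 and FR2_3 the log2 fold change turned sign for ACP5 at -0.24, BNC1 at 0.55, CSPG4 at 0.16, DNAI1 at -0.13, ESR1 at -0.0814, FABP4 at -0.0256, HBEGF at -0.23, IL6 at -0.27, LIF at -0.33, PTGER1 at 0.56, SAL1 at 0.0203, TEKT1 at -0.13, VEGFA at -0.10 and WT1 at 0.30. With limma-voom and sample quality weights the log2 fold change turned sign for AKAP4 at -0.15, DNAI1 at -0.32, ESR1 at -0.0819, FABP4 at -0.082, GATA2 at 0.11, LIF at -0.57, OXTR at -0.0714, TEKT1 at -0.19 and TGFB2 at 0.20. With the smooth muscle score as a covariate the log2 fold change turned sign for BNC1 at 0.14, CDH3 at 0.0116, CSPG4 at 0.018, HBEGF at -0.00461, NCAM1 at 0.0434, VEGFA at -0.00956 and WT1 at 0.17. With the epithelium score as a covariate the log2 fold change turned sign for BNC1 at 0.10 and WT1 at 0.0384. With 1 surrogate variable the log2 fold change turned sign for BNC1 at 0.13, VEGFA at -0.0421 and WT1 at 0.0467. With limma-voom the log2 fold change turned sign for ESR1 at -0.00371. With all 20 libraries in the fit the log2 fold change turned sign for TGFB2 at 0.00604. Ranges over the fits without 1 library, for the genes that reversed in any of them, were ACP5 (-0.14 to 0.52), AKAP4 (-0.26 to 0.36), BNC1 (-0.65 to 0.00187), DNAI1 (-0.43 to 0.39), EOMES (-1.04 to 0.0249), ESR1 (-0.14 to 0.12), FABP4 (-0.14 to 0.32), GATA2 (-0.26 to 0.0949), HBEGF (-0.13 to 0.16), IGF1 (-0.0309 to 0.10), IL6 (-0.15 to 0.80), LIF (-0.40 to 0.46), MZB1 (-0.35 to 0.14), ODF2 (-0.0178 to 0.11), OXTR (-0.16 to 0.41), PGR (-0.0743 to 0.27), PTGES (-0.15 to 0.66), TEKT1 (-0.28 to 0.60), TGFB2 (-0.19 to 0.19), VEGFA (-0.0663 to 0.29) and WT1 (-0.35 to 0.0754). Genes below 1 CPM have wide intervals, and counting error was not separated from the spread between sows there. No paired analysis was possible because the column numbers do not name sows and nothing in the labels ties a number to a shared boar, day or litter.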

Other observations

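Genes of moderate level with large fitted differences not described above were named here after their values were seen, and none was called. SGPL1, which degrades sphingosine 1-phosphate, was at 54.2, 78.2, 142, 46.6 and 141 CPM in FR1 and 319, 177, 64.9, 376 and 149 CPM in FR2 (1.21 ± 0.46 on the log2 scale). FR2_3 was within the FR1 range, and FR2_1 and FR2_4 were the highest. CEMIP, which takes part in hyaluronan breakdown, was at 2.64, 6.95, 5.88, 6.47 and 7.51 CPM in FR1 and 16.9, 11.8, 7.88, 21.6 and 7.27 CPM in FR2 (1.13 ± 0.35), with FR2_5 inside the FR1 range. CYR61 (CCN1), a matricellular protein and YAP target, was at 46.02 to 119.8 CPM in FR1 and 92.8, 114, 396, 49.03 and 267 CPM in FR2 (1.27 ± 0.52). FR2_3 and FR2_5, the 2 sows with high CYR61, were also the 2 with the highest DUSP5.

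Some genes, uterine secretory ones among them, differed widely between sows of 1 group. UPTI, the plasmin and trypsin inhibitor of pig uterine fluid, was at 2.52, 18.2, 20.5, 0 and 16.4 CPM in FR1 and 34.9, 106, 0, 101 and 18.1 CPM in FR2 (2.14 ± 1.36). It was listed at 0 in FR1_4 and FR2_3 and was low in FR1_1. The lipocalin SAL1 was at 890.0, 4.02, 91.7, 134 and 78.4 CPM in FR1 and 17.6, 188, 28.3, 17.4 and 15.3 CPM in FR2 (-2.20 ± 1.17), and without the 3 libraries that stood apart it was at 0.02. The matrix glycoprotein tenascin C (TNC) was at 279, 16.2, 19.4, 47.9 and 77.2 CPM in FR1 and 40.6, 26.1, 51.7, 38.4 and 15.2 CPM in FR2 (-1.37 ± 0.72), with FR1_1 highest, and was at -0.24 without FR1_1.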
